A study of Mus musculus with 2 samples.

Results

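Complex I, the NADH:ubiquinone oxidoreductase of the mitochondrial inner membrane, was represented on the arrays by 70 probes for 45 genes whose names begin with Ndufa, Ndufb, Ndufc, Ndufs, Ndufv or Ndufaf. These members were taken by name alone from 56605 probes, and 22012 genes had a probe well above background on at least 1 array. Of the 45 genes, 38 carry the name of a subunit (58 probes) and 7 that of an assembly factor, *Ndufaf1* to *Ndufaf7* (12 probes). Each of the 45 had a probe well above background on both arrays.

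Striatal RNA was hybridised to 2 single-colour Agilent arrays, 1 for each genotype (WT and Cx30 KO), and each held the pooled striata of 2 mice. The mice were male, 8 weeks old, and received 4 intraperitoneal injections of 20 mg/kg MPTP at intervals of 2 h, and the tissue was taken on day 1. The labels give the strain as C57BL/6J for WT and Cx30-LacZ for Cx30 KO, whereas the methods describe WT controls as non-mutant offspring of heterozygous parents. Both groups had received MPTP, and the saline (NS) arrays were not analysed here, so no value below is a response to MPTP. With 1 array for each genotype no difference could be tested, and fewer cells of a type and less RNA per cell cannot be told apart in such tissue RNA.

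Complex I passes electrons from NADH to ubiquinone and pumps protons. Its core subunits carry the flavin, the iron-sulphur clusters and the proton channels. They are encoded partly in the nucleus and partly in mitochondrial DNA, and are surrounded by accessory subunits in a peripheral arm, which faces the matrix, and a membrane arm. Assembly factors help to build the complex but are not part of the finished enzyme. MPTP is oxidised in glia to 1-methyl-4-phenylpyridinium, which enters dopaminergic neurons through the dopamine transporter and inhibits complex I. The cell bodies of these neurons lie in the midbrain, so striatal RNA comes mainly from striatal neurons and glia.

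The values below are processed signals in array units, with the error that the scanner software gives for each signal, and log2 ratios of Cx30 KO over WT after each array was scaled to its 75th percentile. A signal also depends on the probe's sequence, so signals of different genes are not compared. Repeated spots of the same probe gave an SD of 0.0656 for a log2 ratio, and 2 of these SDs (0.13) were used as a yardstick. This yardstick covers the spread of spots within an array only, not that of mice, and the scanner software's own errors amount to 0.204 to 0.208 for the members' log2 ratios. The Z-score set a log2 ratio against those of the 1000 probes closest to it in brightness. Criteria taken from the methods asked for Z ≥ 2.0 and a ratio ≥ 1.5 for a higher value, and Z ≤ -2.0 and a ratio ≤ 0.66 for a lower one.

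The label check and the tissue markers came first. *Gjb6*, which encodes Cx30, had signals of 1788 (WT) and 111 (Cx30 KO), a log2 ratio of -3.94 (Z = -11.95). The 9 striatal neuron markers were all well above background on both arrays, with a median log2 ratio of -0.16. Of these, 5 were lower and 1 was higher by over 2 spot SDs. Their summed signals were 491715 (WT) and 485627 (Cx30 KO), and sums in this paragraph are of signals before scaling. All 6 cortical neuron markers were higher in Cx30 KO, with log2 ratios of 2.16 to 3.67 and summed signals of 175 (WT) and 1429 (Cx30 KO). On the WT array 4 of these 6, among them *Slc17a7*, *Neurod6* and *Fezf2*, were not well above background. All 7 oligodendrocyte markers had lower values in Cx30 KO (median -0.73, summed signals 157109 and 93330), as had 7 of 8 microglia markers (median -0.53, 88512 and 81869). Most of the microglia sums came from the exception, *Itgam* (60045 and 62438, log2 ratio 0.13). The criteria for a lower value were met by 5 of the oligodendrocyte and 4 of the microglia markers. The 8 general astrocyte markers had a median of 0.02, 6 endothelial markers -0.11 and 4 choroid plexus markers -0.30. In each of these last lists values lay on both sides of 0 and 1 marker met the criteria for a lower value, namely *Aqp4* (-0.95), *Flt1* (-0.93) and *Ttr* (-1.27). The part of these differences in the values of complex I genes was not tested.

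The probes of 5 members show what was hybridised. They were chosen because the members lie at the lower and upper end of the assembly factors or among the subunits with lower values. Each is a 60-base probe written 5′ to 3′ in lower case with nothing marked, and its position is that of the array design in the mm9 build.

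Ndufaf2: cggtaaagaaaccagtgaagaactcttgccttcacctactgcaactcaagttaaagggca
Ndufaf4: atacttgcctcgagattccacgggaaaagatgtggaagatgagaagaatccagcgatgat
Ndufaf6: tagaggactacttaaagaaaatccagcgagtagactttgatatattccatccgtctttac
Ndufb2: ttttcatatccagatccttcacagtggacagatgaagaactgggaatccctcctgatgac
Ndufs8: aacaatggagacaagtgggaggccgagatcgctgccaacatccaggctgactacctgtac

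The *Ndufaf2* probe lies at chr13:108843015-108843074 on the minus strand, the *Ndufaf4* probe at chr4:24830285-24830344 on the plus strand and the *Ndufaf6* probe at chr4:10978306-10978365 on the minus strand. The *Ndufb2* probe lies at chr6:39548271-39548330 on the plus strand and the *Ndufs8* probe at chr19:3908949-3909008 on the minus strand. All 5 were designed to RefSeq mRNAs, and their GC content ranged from 36.7% to 55.0%. The exon behind each was not assigned, since no mm9 genome or annotation was used here. The 45 genes lie on 16 chromosomes, and 0 of them on chromosome 14, which carries *Gjb6*.

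Complex I genes differed little between the genotypes, with a slight lean to lower values in Cx30 KO. None of the 45 met the criteria in either direction. Their log2 ratios ranged from -0.41 (*Ndufa4l2*, ratio 0.753) to 0.12 (*Ndufaf6*, ratio 1.089), with Z-scores between -1.75 and 0.48. Among all 22012 detected genes, 3.39% met the criteria with a lower and 2.37% with a higher value. The log2 ratio was below 0 for 32 of the 45 members, against 45.4% of all detected genes and 42.5% of the 3033 genes at least as bright as *Ndufa8*, the dimmest subunit other than *Ndufa4l2*. The members' median was -0.05, which is a ratio 3.30% below 1, and that of all detected genes was 0.03. By the yardstick of 2 spot SDs, 16 members were lower, 0 were higher and 29 lay within it. Of all detected genes 29.1% were lower and 34.8% higher by this yardstick, and of the bright genes 20.1% and 25.4%.

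**Figure D1:**
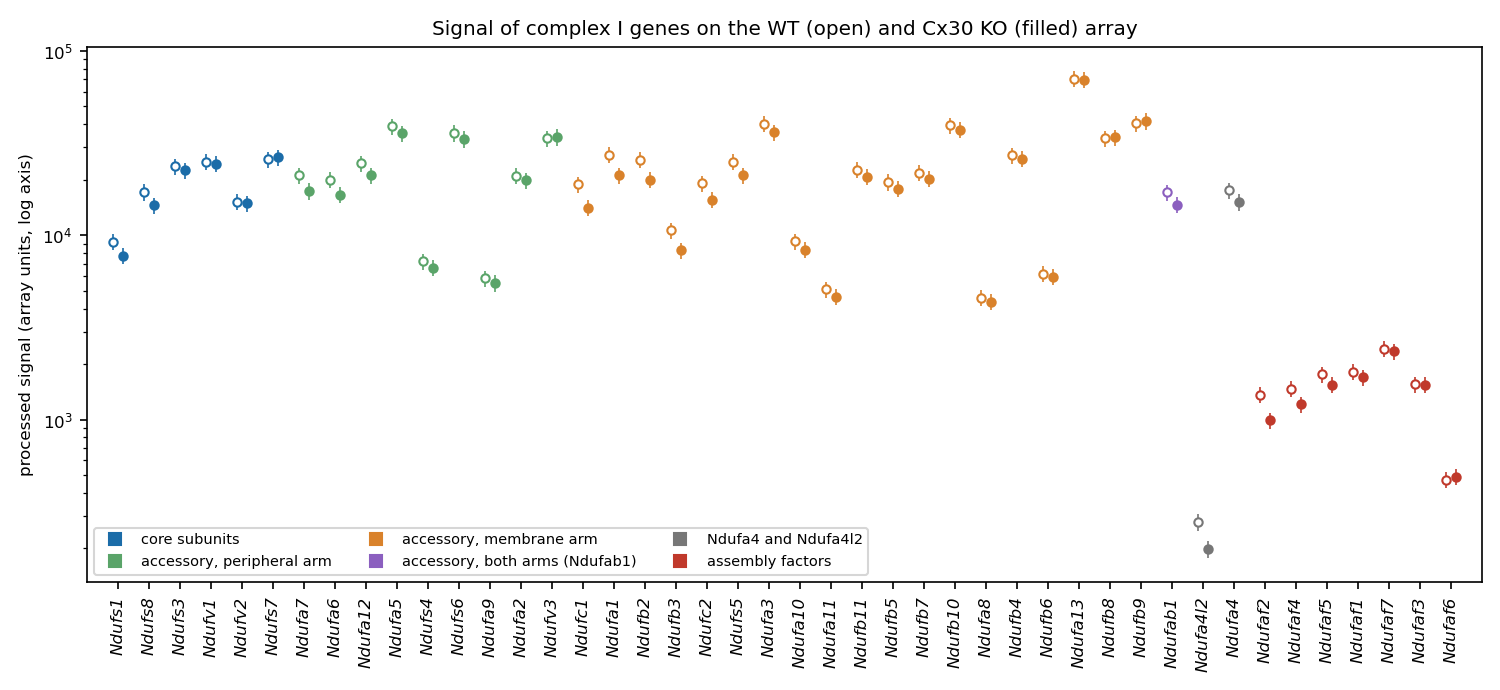
Processed signal (array units, log axis) of the brightest probe of 44 complex I genes on the WT (open circles) and Cx30 KO (filled circles) array, with the scanner software's error as bars. Colours mark the class of each gene, and the pairs of circles lie close together, with the error bars of *Ndufc1*, *Ndufaf2* and *Ndufa4l2* farthest apart.

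The core subunits encoded in the nucleus were divided. Signals of *Ndufs1*, the largest core subunit and a carrier of iron-sulphur clusters, were 9201 ± 920 (WT) and 7739 ± 774 (Cx30 KO, each with its scanner error), for a log2 ratio of -0.18. Those of *Ndufs8*, which holds clusters near the ubiquinone site, were 17124 ± 1712 and 14512 ± 1451, a log2 ratio of -0.17. These were the only core subunits beyond 2 spot SDs. *Ndufs3*, a core subunit of the peripheral arm, had signals of 23630 ± 2363 and 22475 ± 2248, which after scaling gave a log2 ratio of 0.00.

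Other core subunits had values slightly above 0. *Ndufv1*, which binds NADH and the flavin, had signals of 25074 ± 2507 and 24452 ± 2445 (log2 ratio 0.04), and its partner *Ndufv2* 15219 ± 1522 and 14895 ± 1490 (0.04). The highest core value was that of *Ndufs7*, which holds the last cluster before ubiquinone, at 25774 ± 2577 and 26447 ± 2645 (0.11). Over the 7 core subunits the median log2 ratio was 0.04, 3 were below 0 and 4 above it. The sign of this median depended on the scaling. With each array scaled by its median signal it was -0.01, and 5 of 7 were below 0, against 52.7% of all detected genes.

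Apart from *Ndufa4l2*, described below, the lowest values among genes named as subunits were those of accessory subunits of the membrane arm. *Ndufc1*, a small subunit of this arm, had signals of 18913 ± 1891 (WT) and 14113 ± 1411 (Cx30 KO), a log2 ratio of -0.35 and the lowest Z-score of the members at -1.75. *Ndufa1*, encoded on the X chromosome, had 27272 ± 2727 and 21095 ± 2109 (-0.30). For *Ndufb2* the signals were 25616 ± 2562 and 19942 ± 1994 (-0.29), and for *Ndufb3* they were 10608 ± 1061 and 8285 ± 828 (-0.29). *Ndufc2*, at -0.22, and *Ndufs5*, at -0.18, were the other 2 of the 6 membrane-arm genes below the yardstick. The *Ndufb2* probe shown above gave -0.27 and a dim probe of the gene -0.22, so all 3 of its probes lay below 0.

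The highest log2 ratios among membrane-arm genes were those of *Ndufb9*, with signals of 40451 ± 4045 and 41555 ± 4156 (0.11), and *Ndufb8*, with 33534 ± 3353 and 33883 ± 3388 (0.09). *Ndufa13*, also known as GRIM-19, had 70361 ± 7036 and 69412 ± 6941 (0.05). None of these exceeded 2 spot SDs. Among the other bright probes, *Ndufb10* (39450 ± 3945 and 37360 ± 3736) had a log2 ratio of -0.01 and *Ndufa3* (40301 ± 4030 and 36058 ± 3606) one of -0.09. The dimmest accessory subunits were *Ndufa8*, with 4592 ± 459 and 4365 ± 436 (0.00), and *Ndufa11*, with 5090 ± 509 and 4642 ± 464 (-0.06). In all, 14 of the 19 membrane-arm genes had log2 ratios below 0, with a median of -0.05 and quartiles of -0.20 and 0.00.

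In the peripheral arm 8 of 9 accessory subunits had log2 ratios below 0, with a median of -0.05. The lowest was *Ndufa7* with signals of 21162 ± 2116 and 17348 ± 1735 (-0.22), followed by *Ndufa6* at -0.20 and *Ndufa12* at -0.14. *Ndufs4*, a late-joining subunit whose loss causes Leigh syndrome, had 7220 ± 722 and 6645 ± 665 (-0.05). The exception was *Ndufv3*, a small partner of *Ndufv1* and *Ndufv2*, with 33512 ± 3351 and 34036 ± 3404 (0.09). By family, 14 of the 15 genes with names in Ndufa lay below 0, with *Ndufa4*, *Ndufa4l2* and *Ndufab1* counted. This count was 13 under normexp background correction with quantile normalisation, and 12 with the mean of detected probes. All 3 genes with names in Ndufv lay above 0, though within 2 spot SDs. Of these 3, 1 did so when the arrays were scaled by their median signal.

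*Ndufab1*, the mitochondrial acyl carrier protein, sits in both arms and also serves fatty acid synthesis. Its signals were 17106 ± 1711 and 14622 ± 1462, a log2 ratio of -0.15, from a probe designed to an Ensembl transcript. The dim *Ndufab1* probe designed to the RefSeq mRNA had 82.8 ± 9.59 and 55.1 ± 7 (-0.52). *Ndufa4*, named as a complex I subunit but placed in complex IV, had signals of 17504 ± 1750 and 15122 ± 1512 (-0.14). The hypoxia-inducible paralogue of *Ndufa4*, *Ndufa4l2*, had 278 ± 28.2 and 199 ± 20.4 (-0.41, Z = -1.10). At such a dim signal the spread of the neighbouring probes is wide, so the lowest log2 ratio of the members did not have their lowest Z-score. Its rank depended on the processing. Under normexp background correction with quantile normalisation *Ndufa4l2* lay at -0.341, and *Ndufaf2* (-0.359) and *Ndufc1* (-0.355) were lower.

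**Figure D2:**
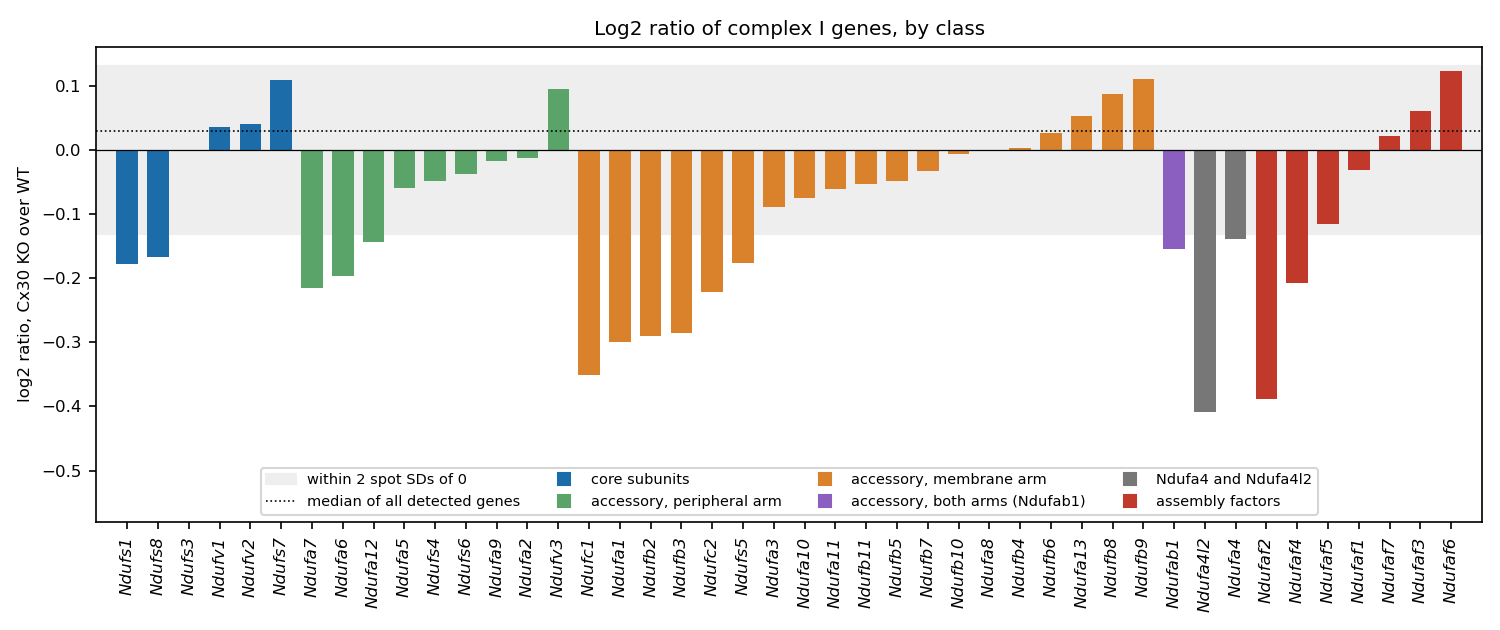
Log2 ratio of Cx30 KO over WT for 44 complex I genes, coloured by class, with the band of 2 spot SDs (0.13) in grey and the median of all detected genes (0.03) dotted. In total 16 bars pass the lower edge of the band and 0 pass the upper edge.

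Assembly factors were compared with subunits. Among the 7 assembly factors, *Ndufaf2*, a paralogue of *Ndufa12* that acts late in assembly, had the lowest value with signals of 1366 ± 137 (WT) and 993 ± 99.4 (Cx30 KO), a log2 ratio of -0.39 (Z = -1.39). *Ndufaf4* had 1467 ± 147 and 1210 ± 121 (-0.21). Its early-acting partner *Ndufaf3* had 1555 ± 156 and 1543 ± 154, a log2 ratio of 0.06, so the 2 partners lay on either side of 0. *Ndufaf5*, which hydroxylates *Ndufs7*, had 1760 ± 176 and 1546 ± 155 (-0.12).

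*Ndufaf1*, a member of the assembly complex that builds the membrane arm, had signals of 1821 ± 182 and 1696 ± 170 (log2 ratio -0.03). *Ndufaf7*, a mitochondrial methyltransferase, had 2424 ± 242 and 2341 ± 234 (0.02). *Ndufaf6*, an early factor, had 472 ± 47.5 and 489 ± 49.2 (0.12), the highest log2 ratio of all members. Of the 7 assembly factors 4 were below 0, of which 2 (*Ndufaf2* and *Ndufaf4*) were beyond 2 spot SDs, and the median was -0.03. These counts were near the shares over all detected genes, 45.4% below 0 and 29.1% lower by over 2 spot SDs. Less bright probes of *Ndufaf5* and *Ndufaf6* gave -0.16 and 0.34, with the sign of the main probe, and that of *Ndufaf7* gave -0.07, with the opposite sign.

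Of the 38 subunit genes 28 were below 0, 14 were beyond 2 spot SDs on the lower side, and the median was -0.05. Of the genes at least as bright as *Ndufa8*, 42.5% were below 0 and 20.1% lower by over 2 spot SDs. The medians of subunits and assembly factors differed by -0.02. A spot SD describes a single probe and gives no error for this difference, which was not tested. Without *Ndufa4* and *Ndufa4l2* the 36 subunits had a median of -0.05 and the difference was again -0.02. After the mean log2 ratio of the probes closest in brightness was subtracted, the medians were -0.0654 for the 38 subunits and -0.0352 for the assembly factors. The range of the assembly factors (-0.39 to 0.12) covered that of the 36 subunits (-0.35 to 0.11). Functionally linked pairs were set side by side. *Ndufaf2* and its paralogue *Ndufa12* lay at -0.39 and -0.14, and *Ndufaf5* and *Ndufs7* at -0.12 and 0.11.

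Assembly factors outside the naming rule had a median of -0.09 over 10 genes, 8 of them below 0. They were listed as known factors of complex I assembly and include *Ndufaf8*, which the array carries under an older name. *Ndufaf8*, the partner of *Ndufaf5*, had signals of 454 and 371 (-0.22). *Nubpl*, which delivers iron-sulphur clusters, had the lowest value at 208 and 158 (-0.33). *Tmem70*, at -0.21, *Dmac1*, at -0.17, and *Tmem126b*, at -0.14, were also beyond 2 spot SDs. The Z-scores of these 5 genes lay only between -0.99 (*Nubpl*) and -0.44 (*Tmem126b*). Of all detected genes 45.4% were below 0 and 29.1% lower by over 2 spot SDs. *Acad9* lay at -0.04, *Tmem186* at -0.03, *Timmdc1* at 0.00 and *Foxred1* at 0.10. The highest was *Ecsit* with 10943 and 11962 (0.20, Z = 0.89). Its partners in the same assembly complex, *Ndufaf1*, *Acad9* and *Tmem126b*, had values below 0. Of these, *Ndufaf1* and *Acad9* lay within 1 spot SD of 0, and *Tmem126b* had a Z-score of -0.44.

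The 7 core subunits encoded in mitochondrial DNA all had values below 0, with a median of -0.12. Of all detected genes 45.4% were below 0 and 29.1% lower by over 2 spot SDs. *ND1*, which meets the ubiquinone pocket, was lowest with signals of 23911 (WT) and 18775 (Cx30 KO), a log2 ratio of -0.28. *ND2* had 134210 and 115284 (-0.15) and *ND3* had 106904 and 92479 (-0.14), and these 3 were beyond 2 spot SDs. *ND6* had 311 and 273 (-0.12), *ND4L* 101238 and 91393 (-0.08), *ND4* 95742 and 87352 (-0.06) and *ND5* 26178 and 24398 (-0.03). The array design places the *ND3* probe at chr1:24619613-24619672, a position in the nuclear genome, so transcripts of mitochondrial DNA and of a nuclear copy cannot be told apart for it.

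The other respiratory complexes also leaned to lower values, and 0 of their 37 genes met the criteria. Of the 37, 28 were below 0 and the median was -0.11. This compares with 45.4% below 0 among all detected genes and 42.5% among those at least as bright as *Ndufa8*. In complex II, succinate dehydrogenase, *Sdha* (-0.13), *Sdhc* (-0.11) and *Sdhd* (-0.11) lay below 0 and *Sdhb* above it (0.16). In complex III the lowest were *Uqcrfs1*, the Rieske protein (-0.31), and *Uqcrq* (-0.19), and the highest *Uqcrc1* (0.14) and *Uqcrc2* (0.07), with a median of -0.09 over 9 genes. All 9 genes of complex IV, cytochrome c oxidase, were below 0 with a median of -0.16, from *Cox5a* (-0.24) and *Cox7c* (-0.23) to *Cox8a* (-0.05) and *Cox6a1* (-0.01). In complex V, the ATP synthase, 10 of 15 genes were below 0 with a median of -0.08, from *Atp5l* (-0.30) and *Atp5j* (-0.21) to *Atp5d* (0.07) and *Atp5o* (0.11). The members' median of -0.05 lay closer to 0 than the medians of these complexes, which were between -0.16 and -0.08, and the difference was not tested. With median scaling the count below 0 was 32 of 37, against 52.7% of all detected genes.

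Genes of mitochondrial biogenesis and mass had a median of -0.03, with 6 of 12 below 0, against 45.4% of all detected genes. With median scaling the count was 10 of 12, against 52.7%. The lowest were *Tfam*, a transcription factor of mitochondrial DNA, with signals of 752 and 544 (-0.40), and *Hspd1*, a matrix chaperonin, with 8144 and 5963 (-0.38). The highest were *Esrra*, a nuclear receptor of energy metabolism (0.15), and *Vdac1*, a channel of the outer membrane (0.13).

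**Figure D3:**
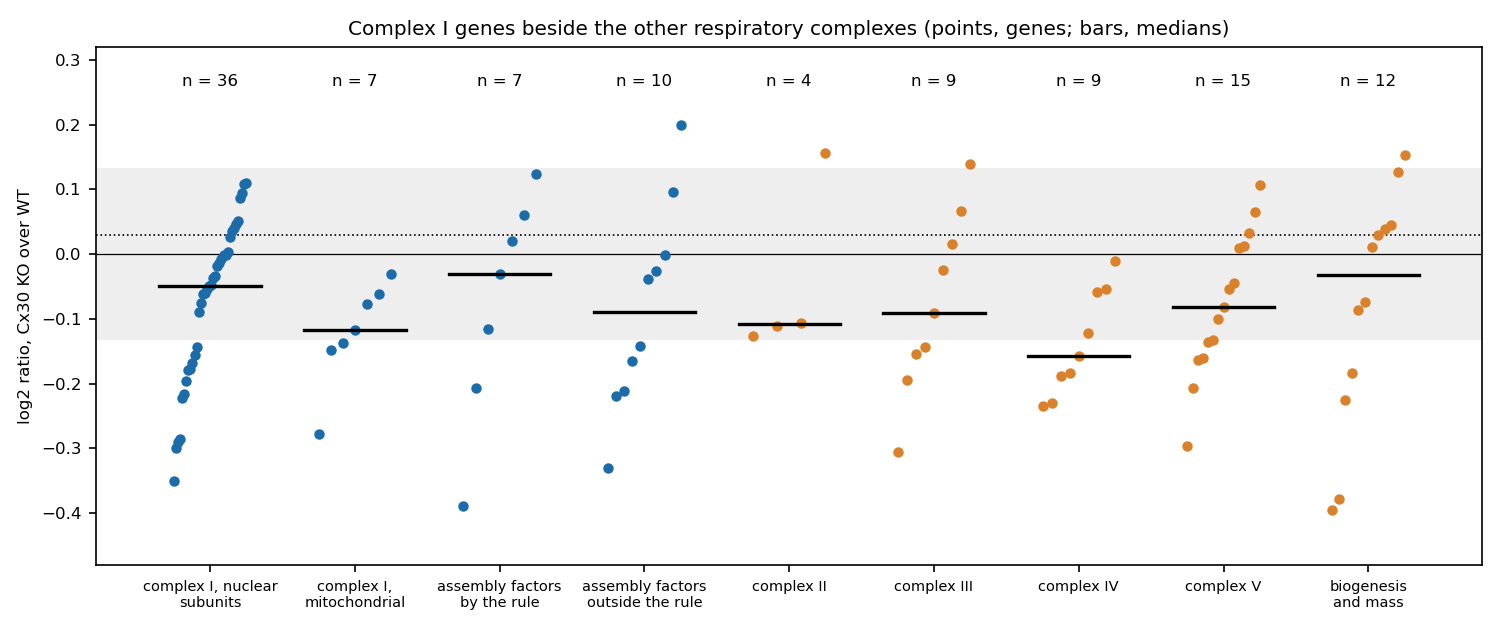
Log2 ratio of Cx30 KO over WT for 36 nuclear complex I subunits, the 7 mitochondrially encoded subunits, assembly factors within (7) and outside (10) the naming rule, complexes II to V and genes of mitochondrial biogenesis and mass. Points are genes, bars medians, the grey band 2 spot SDs and the dotted line the median of all detected genes (0.03), and the medians of all 9 lists lie below that line.

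Several members had more than 1 probe, and most bright probes of a gene gave similar log2 ratios. Of the 45 genes 25 had 1 probe, 15 had 2 and 5 had 3. In the 8 genes with several probes of at least 1000 on both arrays the log2 ratios differed by 0.02 to 0.15, with a median of 0.03. The largest difference exceeded the yardstick of 0.13. The less bright of these probes passed the yardstick for *Ndufa10* (-0.137, against -0.075) and *Ndufb5* (-0.146, against -0.048), where the main probe did not. The counts beyond the yardstick thus depend on the probe used.

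Dim probes of the same genes spread more. In 8 genes a probe under 100 on both arrays could be set against the brightest one, and the log2 ratios differed by 0.01 to 0.80 with a median of 0.40. Of these 8 dim probes 7 were designed to transcripts without a RefSeq mRNA number, such as alternative Ensembl transcripts. The *Ndufs1* probe for such a transcript had signals of 44.1 ± 6.37 and 64.6 ± 7.63 (0.62), opposite in sign to the -0.18 of the brightest probe. A dim *Ndufv2* probe gave 0.79 (27.1 ± 5.3 and 44.5 ± 6.03), against 0.04.

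Of the 70 probes 64 were well above background on both arrays, 3 on 1 array and 3 on neither. The probe for a non-coding *Ndufa7* transcript had signals of 73.8 ± 8.46 (WT) and 3.6 ± 3.61 (Cx30 KO), where it was not well above background, so it was at least 4.05-fold lower in Cx30 KO. This bound sets the scaled WT signal against the lowest scaled signal that counted as well above background on the Cx30 KO array. It leaves out the scanner errors. The main *Ndufa7* probe had a log2 ratio of -0.22. A *Ndufb8* probe was well above background in WT only (25 ± 5.22 and 15.5 ± 4.37, at least 1.37-fold lower in Cx30 KO) and an *Ndufaf6* probe in Cx30 KO only (23.8 ± 4.22, at least 1.27-fold higher there). The second probes of *Ndufa4l2* and *Ndufs5* and 1 of the 3 probes of *Ndufaf5* were not well above background on either array.

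**Figure D4:**
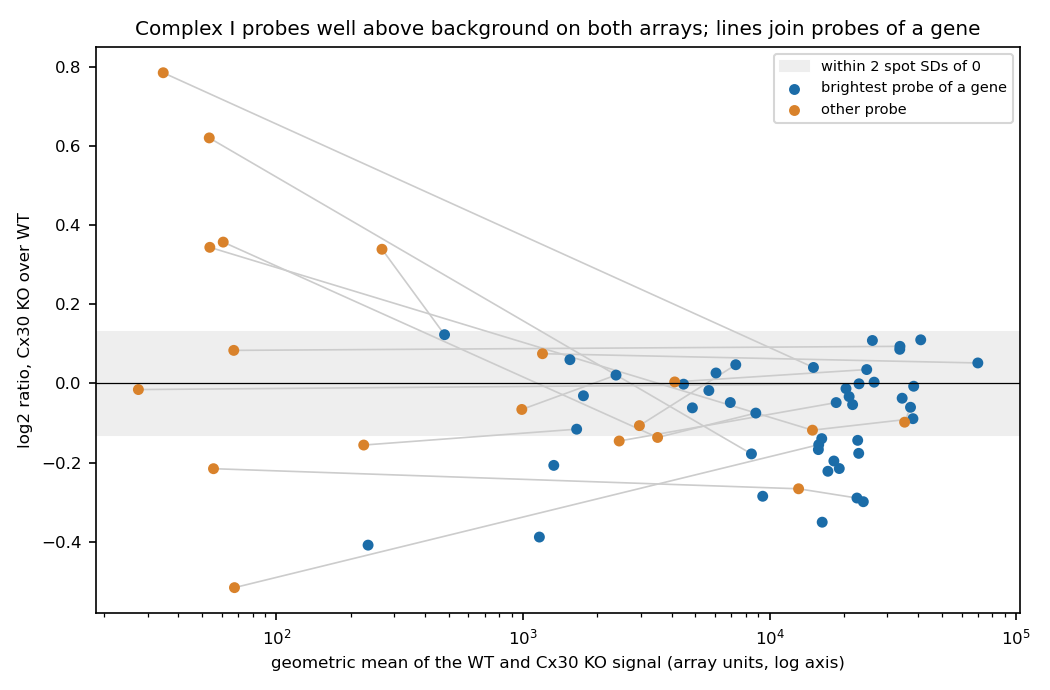
Log2 ratio of Cx30 KO over WT against the geometric mean of both signals (array units, log axis) for the 64 complex I probes well above background on both arrays, with lines joining probes of a gene and the band of 2 spot SDs in grey. Probes above 1000 stay between -0.39 and 0.11, while probes below 100 spread from -0.52 to 0.79.

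The promoters of the members were searched for short motifs of factors known for nuclear genes of the respiratory chain. RefSeq sequences (GRCm38.p6) from 250 bases before to 50 bases after the start were used, and 39 of the 45 members matched. The search covered both strands, and the NRF1 motif overlaps its own reverse complement, so that 1 site can match on both. The NRF1 motif GCATGCG stood in 5 of 39 members (12.8%) and in 4.01% of all 27025 genes with a promoter. The motif CCGGAAG of ETS factors such as GABPA was present in 5 of 39 (12.8%, against 9.93%), and AAGATGG, a YY1 motif, in 7 of 39 (17.9%, against 7.28%).

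All 5 members with the NRF1 motif, *Ndufa6*, *Ndufa8*, *Ndufa11*, *Ndufaf4* and *Ndufaf5*, had log2 ratios below 0 (median -0.12), as had 24 of the 34 without it (median -0.05). Only *Ndufa6* and *Ndufaf4* among these 5 were beyond 2 spot SDs, and *Ndufa8* was barely below 0 (-0.0019). The other motifs went the other way, with medians of -0.03 with the ETS motif and -0.06 without it, and of -0.04 with the YY1 motif and -0.06 without it. Over any of the 3 motifs the medians were -0.04 in the 17 members with one and -0.07 in the 22 without. These counts describe the letters in the window and were not tested. For 3 members the 120 bases before the start are shown, 5′ to 3′ on the gene's strand, with the motif in capitals. The first 2 hold the NRF1 motif and the last that of ETS factors.

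Ndufa6: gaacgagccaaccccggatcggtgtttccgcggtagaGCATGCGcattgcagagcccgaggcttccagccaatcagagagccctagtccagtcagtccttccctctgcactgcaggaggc
Ndufaf4: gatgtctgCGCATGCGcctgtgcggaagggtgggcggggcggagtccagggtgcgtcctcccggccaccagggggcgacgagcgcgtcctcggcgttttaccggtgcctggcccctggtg
Ndufs3: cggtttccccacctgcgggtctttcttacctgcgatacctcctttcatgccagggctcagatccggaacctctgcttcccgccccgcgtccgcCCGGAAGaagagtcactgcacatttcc

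In GRCm38.p6 these stretches lie at chr15:82354292-82354411 on the minus strand for *Ndufa6*, at chr4:24897963-24898082 on the plus strand for *Ndufaf4* and at chr2:90904722-90904841 on the minus strand for *Ndufs3*. The motif begins 83 bases before the start of *Ndufa6*, and in *Ndufaf4* it reads on both strands within the 8 capital letters. The log2 ratios of these 3 genes were -0.20, -0.21 and 0.00. *Gabpa* itself lay at -0.18 and *Nrf1* at 0.05, both within the list of biogenesis genes above.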

How the data were processed

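Striatal RNA of MPTP-treated WT and Cx30 KO mice was measured on 1 array each. The authors extracted the spots with Agilent Feature Extraction (version 10.7.1.1 in the file headers, 9.5.1.1 in the submitters' processing notes), which subtracted background and trends within an array. The deposited processed signals are linear intensities, not normalised between arrays, and probe positions are mm9. The series' value table, also deposited as linear intensities, was used as an alternative only. Its medians are 41.2 for both arrays and its sorted columns differ by at most 0.0194%, as quantile normalisation gives, but the sources used here name no such step.

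Control and outlier spots were left out, spots of a probe averaged as log2 signal, and each array's 75th percentile (401.2 WT, 381.8 Cx30 KO) was subtracted. Each gene was read from its brightest probe that was well above background in either genotype. The lowest such signal was 19.8 in WT and 17.4 in Cx30 KO, and 0 probes were saturated. Older symbols were updated from RefSeq for 2038 probes. The members and lists were chosen with earlier results of these data known. Core subunits and assembly factors were named, with the 4 highest, 4 lowest, 4 brightest and 2 dimmest accessory subunits and members whose probes disagreed. The values of 1 member and 1 marker are counted in the lists but not reported here. No test was possible with 1 array per genotype. Precision is limited by there being 1 array per genotype. The Z-score script was tested on simulated data. Python 3.11.15, pandas 2.3.3, R 4.3.3 and limma 3.58.1 were used.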

Additional observations from a re-analysis of the deposited data

How the results depend on the processing

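With 1 array for each genotype, no array could be left out, and no replicate error between mice was available. No paired analysis was possible because each genotype had 1 array. Log2 ratios were below 0 for 32 of 45 members under quantile normalisation, normexp background correction and the deposited value table. The count was also 32 with no filter on dim probes, detection on both arrays and the mean of detected probes. Scaling by the median signal gave 37. It moved the median of all detected genes from 0.03 to -0.02 and their share below 0 from 45.4% to 52.7%. That scaling also reversed the median of the core subunits, from 0.0351 to -0.0121, because it lowers every log2 ratio by the same amount. None of the 45 members met the criteria under any alternative except the mean of detected probes, under which 1 (*Ndufa7*) did, since its dim non-coding probe then entered its value (-2.25). The same alternative moved the median of complex II from -0.1085 to -0.0386. It changed the sign of 6 members although their count below 0 stayed at 32. Among single members, it moved *Ndufaf6* from 0.12 to 0.56, *Ndufv2* from 0.04 to 0.41, *Ndufs1* from -0.18 to 0.22, *Ndufa10* from -0.08 to 0.05, *Ndufa3* from -0.09 to 0.05, *Ndufb8* from 0.09 to -0.27 and *Ndufab1* from -0.15 to -0.34. Scaling by the median signal also turned the median of the Ndufv family from 0.04 to -0.01. With no filter on dim probes the median of all genes went from 0.03 to -0.07 and the share below 0 from 45.4% to 56.7%, since 37005 genes then entered. The medians of all members, subunits, assembly factors within and outside the naming rule, both groups of accessory subunits, mitochondrially encoded subunits, complexes III to V and biogenesis genes kept their sign and moved by less than 1 spot SD under the alternatives run. Several of these medians are themselves smaller than 1 spot SD, so this limit says little about their size. Scaling by the median signal moved that of all members from -0.0484 to -0.0956. It moved that of the assembly factors from -0.0312 to -0.0785.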
